A study of Rattus norvegicus with 8 samples.

Results

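Keratins are the intermediate filament proteins of epithelial cells, and 10 of their genes were examined in SF2 cells, a rat dental epithelial line whose source was the cervical loop of mandibular incisors: Krt5, Krt7, Krt8, Krt13, Krt14, Krt17, Krt18, Krt19, Krt23 and Krt80. They were chosen by name, with earlier results of these data known, as the keratins of simple, basal and mucosal epithelium. A keratin symbol was carried by 50 of the 30240 rows of the gene table, and 8 of the 10 genes were among these. Of those 8, 7 had enough signal to be tested and Krt18 was listed at 0 in every library. Krt14 and Krt19 were not analysed here as genes of their own, for a reason given with the row named Krt16.

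A keratin filament is an obligate heteropolymer: an acidic type I keratin pairs with a basic type II keratin, and neither is stable alone. Simple, single-layered epithelia are known for the type II keratins Krt7 and Krt8 with the type I keratins Krt18 and Krt19. The basal layer of stratified epithelia is known for Krt5 with Krt14, and Krt17 appears in basal, appendage and stressed epithelium. Krt13, with the type II keratin Krt4, marks the upper layers of wet mucosae such as those of the mouth and oesophagus.

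The study made 8 RNA libraries, 1 for each combination of genotype, plasmid and treatment label. The genotype was AmeloD-overexpressing (here AmeloD; AmeloD is the basic helix-loop-helix factor encoded by Ascl5) or Control. The plasmid label was pCMV6 or pCMV6.ODAM (Odam encodes a protein secreted by ameloblasts), and the treatment label was N or TGF; what these stand for is not spelled out. Each label was thus carried by 4 libraries, no combination had a replicate, and the labels do not say whether the genotypes were single clones or pools. Where 4 values of a genotype follow each other, the first and second are N (pCMV6, then pCMV6.ODAM) and the others are TGF (pCMV6.ODAM, then pCMV6).

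The libraries held 10568146 to 17775226 reads, and the 4 AmeloD libraries were the shallower; the part of depth in the results below was not tested beyond the scalings tried. Levels are the deposited CPM (CPM is a gene's read count scaled to the library's total), and changes are differences of log2(CPM + 1) ± SE, which understate changes of low genes. Limma tested 6849 genes, with p values adjusted over all of them (Benjamini-Hochberg), and a gene that passed had an adjusted p under 0.05. Since no combination was replicated, the p values start from the spread among the 8 libraries left by additive terms. Limma draws each gene's spread toward that of other genes of similar level, so a p value does not rest on that gene alone. Fits within 4 libraries lean on other genes still more, since they leave less spread of their own to measure. Ascl5 had 0 reads in all 8 libraries, so its row does not check the AmeloD label. Odam had 31 of its 32 reads in the 4 pCMV6.ODAM libraries, and in those libraries 27 lay in Control and 4 in AmeloD.

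Promoter sequence was at hand for 4 of the 10 genes (RefSeq, GRCr8), and it is shown because AmeloD belongs to a family that binds E-boxes and because these genes went different ways. Krt5 and Krt23 were higher in AmeloD, Krt8 was lower, and Krt18, which lies beside Krt8 on chromosome 7, had no reads. Each sequence runs 5′ to 3′ on the gene's own strand and ends at the base before the annotated start, except that of Krt8, which ends 25 bases past its last TATAAA match so as to hold little transcribed sequence. Capitals mark every E-box match, CANNTG, which reads the same way on both strands. The stretches are, for Krt5, chr7:134730570-134730819 (minus strand); for Krt8, chr7:135010413-135010589 (minus strand); for Krt18, chr7:135035918-135036167 (plus strand); and for Krt23, chr10:84946930-84947179 (minus strand).
Krt5: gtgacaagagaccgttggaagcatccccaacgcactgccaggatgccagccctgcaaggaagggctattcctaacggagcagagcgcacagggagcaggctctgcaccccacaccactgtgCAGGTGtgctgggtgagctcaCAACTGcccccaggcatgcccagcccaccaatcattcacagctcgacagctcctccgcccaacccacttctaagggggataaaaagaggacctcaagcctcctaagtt
Krt8: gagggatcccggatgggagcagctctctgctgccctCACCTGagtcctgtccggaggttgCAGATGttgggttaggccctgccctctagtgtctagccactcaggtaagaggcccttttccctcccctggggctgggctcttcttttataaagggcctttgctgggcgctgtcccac
Krt18: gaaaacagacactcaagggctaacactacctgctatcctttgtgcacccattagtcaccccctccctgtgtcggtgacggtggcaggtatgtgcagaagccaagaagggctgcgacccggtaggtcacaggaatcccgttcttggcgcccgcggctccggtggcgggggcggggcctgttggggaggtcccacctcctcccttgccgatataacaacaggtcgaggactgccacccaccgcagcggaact
Krt23: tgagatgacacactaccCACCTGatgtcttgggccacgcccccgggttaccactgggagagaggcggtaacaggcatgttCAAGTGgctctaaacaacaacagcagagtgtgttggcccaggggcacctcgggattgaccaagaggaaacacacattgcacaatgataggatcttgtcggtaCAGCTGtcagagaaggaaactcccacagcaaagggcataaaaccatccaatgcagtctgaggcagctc
Krt5 had 2 E-box matches in the 250 bases before its start, at 129 and 108 bases before it. Krt8 had 3, at 214, 190 and 63 bases, of which the last is a CAGCTG in the stretch not printed. That stretch was left out because it may be transcribed, and the printed stretch of Krt8 holds no CAGCTG. Krt23 had 3, at 233, 170 and 68 bases, of which the last is also a CAGCTG. Krt18 had none. Of 33469 promoters of that length in the table, 65.5% held at least 1 E-box match (median 1) and 12% held a CAGCTG. A match of these letters is a description and not a binding site.

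The summed keratin signal was higher in AmeloD. The 8 genes with a row summed to 1099 ± 19.7 CPM in the AmeloD libraries and to 672 ± 65.0 CPM in the Control libraries (SD, n = 4 each), a ratio of 1.63. All keratin rows together held 0.896% to 0.956% of the table's reads in AmeloD and 0.564% to 0.729% in Control. The 8 genes and the row named Krt16 made up 99.0% to 99.5% of keratin reads in every library, so nearly all reads counted in rows with a keratin symbol are described here. The groups did not overlap in the sum, which is given without a test because the genes were chosen with results known.

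**Figure D1:**
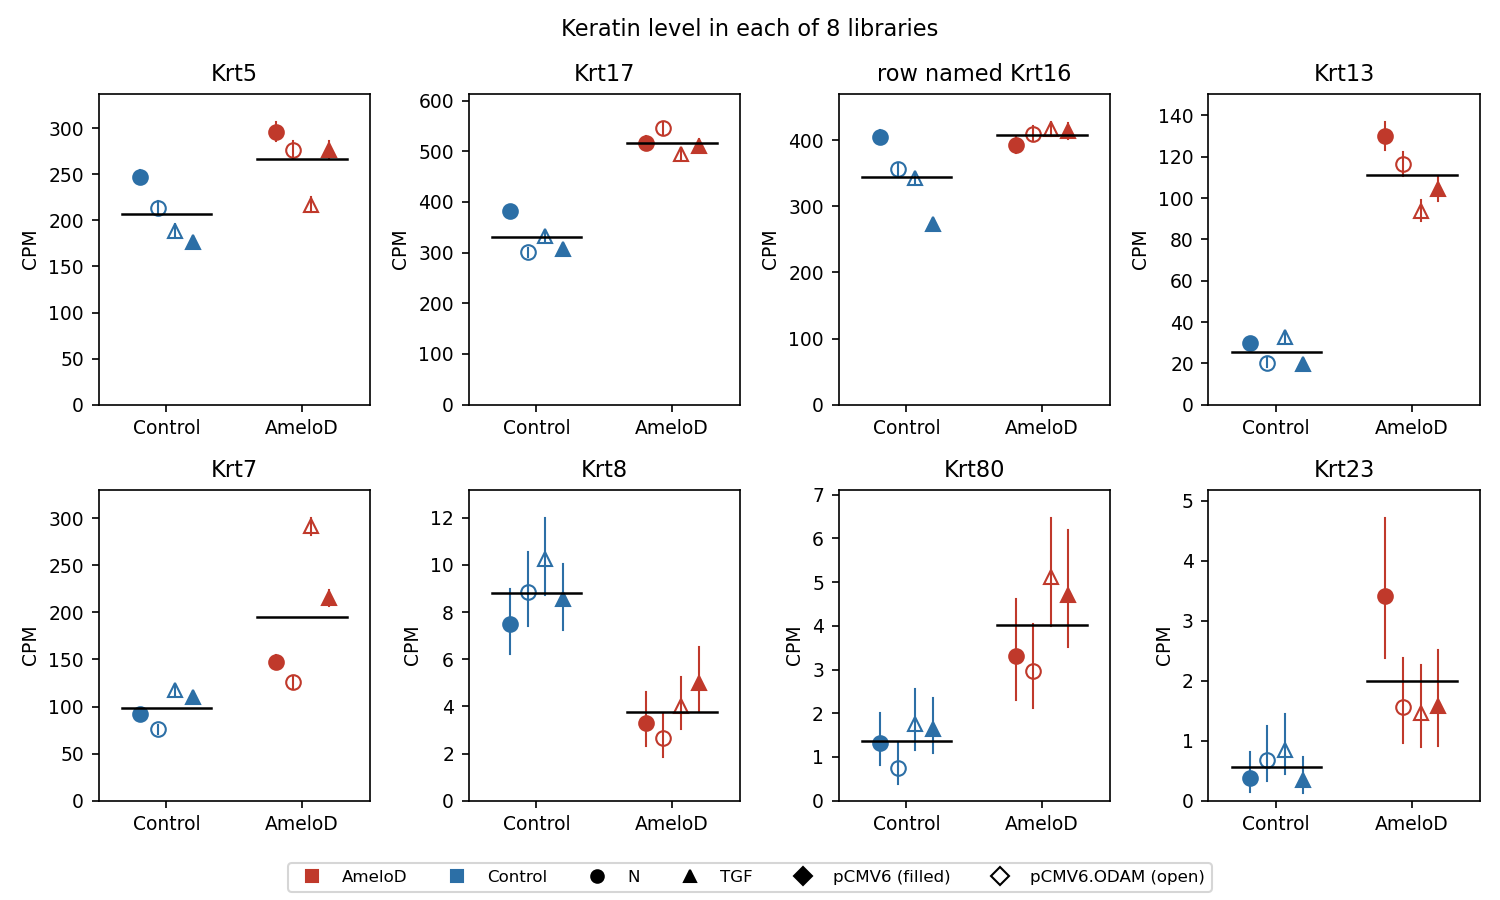
Level of each keratin in CPM (vertical axes, starting at 0 and differing between panels) in the 4 Control and 4 AmeloD libraries (horizontal axis). Points are libraries, vertical lines exact 95% Poisson intervals of counting error, and horizontal lines group means; Krt13 sits between 93.9 and 130 CPM in AmeloD and between 19.9 and 32.9 CPM in Control, and Krt8 is lower in every AmeloD library than in any Control library.

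Between the genotypes all 7 tested keratins passed, of which AmeloD had 6 higher and 1 lower. Over all tested genes 13.8% passed, 9.07% higher and 4.75% lower, and the median change was 0.05. Krt13 rose by the most and Krt8 was the one that fell. Krt23 reached 1 CPM in the 4 AmeloD libraries alone, so it passed the filter on low values through the group where it was high. It is therefore described but lends the count no weight. The 7 genes were chosen with earlier results known, so their count beside the share over all genes is a description and not a test. Of 6 other keratin rows tested, described below, 3 passed and 3 did not.

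Krt13, the type I keratin of wet mucosa (ENSRNOG00000014070, chromosome 10, 85051889 to 85056084 in mRatBN7.2, minus strand), had 130, 116, 93.9 and 104 CPM in AmeloD and 29.8, 20.3, 32.9 and 19.9 CPM in Control. Every AmeloD library was far above every Control library, and the lowest of the first was 93.9 against a highest of 32.9 CPM in the second. The mean was 111 ± 15.5 CPM against 25.7 ± 6.60 CPM (SD, n = 4 each), a change of 2.09 ± 0.14 with an adjusted p of 4.58e-11 by limma. Krt4, the usual type II partner of Krt13, had 2 reads in the 8 libraries together, against 6991 reads of Krt13. The genes whose levels over the 8 libraries were most like those of Krt13 were Slpi, a secreted protease inhibitor of mucosae (Pearson r = 0.994), and Sprr1a, a precursor of the cornified envelope (r = 0.990), out of 1392 candidates with a mean of at least 10 CPM. These coefficients describe 8 libraries that fall into 2 genotype groups and share their depth.

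Krt7, a type II keratin of simple and glandular epithelium (ENSRNOG00000008057, chromosome 7, 132528895 to 132545052, plus strand), had 147, 126, 291 and 215 CPM in AmeloD and 91.7, 75.6, 117 and 110.3 CPM in Control. The genotypes did not overlap, but the lowest AmeloD library (pCMV6.ODAM N) was close to the highest Control library (pCMV6.ODAM TGF). The change was 0.92 ± 0.11 (adjusted p = 2.46e-06, limma). Its order of levels ran from AmeloD pCMV6.ODAM TGF through AmeloD pCMV6 TGF, AmeloD pCMV6 N, AmeloD pCMV6.ODAM N, Control pCMV6.ODAM TGF, Control pCMV6 TGF and Control pCMV6 N to Control pCMV6.ODAM N. In that order AmeloD pCMV6.ODAM N (95% Poisson interval 120.2 to 132 CPM) and Control pCMV6.ODAM TGF (112 to 123 CPM) overlapped in counting error, and so did Control pCMV6.ODAM TGF and Control pCMV6 TGF (105 to 115 CPM). The other neighbours did not overlap. The genes most like Krt7 were Leng9 (r = 0.986) and Gpr15lg, a secreted ligand of epithelia (r = 0.980, n = 8).

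Krt8, the other type II keratin of simple epithelium (ENSRNOG00000009779, chromosome 7, 133124203 to 133131728, minus strand), went the opposite way to Krt7. Its level was 3.31, 2.67, 4.02 and 4.99 CPM in AmeloD and 7.51, 8.87, 10.3 and 8.55 CPM in Control. The groups did not overlap. Behind these levels stand 180 AmeloD reads and 561 Control reads. The change was -1.06 ± 0.16 (adjusted p = 4.55e-05, limma), a mean of 3.75 ± 0.995 CPM against 8.80 ± 1.14 CPM (SD, n = 4 each). Krt8 thus fell where the type II keratins Krt5, Krt7 and Krt80 rose.

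Krt18, the type I partner of Krt8 in simple epithelium (ENSRNOG00000047393, chromosome 7, 133157475 to 133161166, plus strand, 7 exon blocks), had 0 reads in all 8 libraries. Counting error alone lets a true level of up to 3 reads go unseen, or 0.169 to 0.284 CPM depending on the library. How reads that match several places in the genome were treated is not stated in the labels, so this is a statement about the row and not about the gene. Neither Krt8 nor Krt7 could be set against Krt18.

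Krt17, a type I keratin of basal and appendage epithelium (ENSRNOG00000026371, chromosome 10, 85178675 to 85183392, minus strand), had 516, 546, 495 and 511 CPM in AmeloD and 382, 300.5, 333 and 308 CPM in Control. Each AmeloD library was above each Control library, and the spread within AmeloD was small. The change was 0.65 ± 0.08 (adjusted p = 4.86e-06, limma), from 331 ± 36.7 to 517 ± 21.1 CPM (SD, n = 4 each). Slpi (r = 0.971) and Sprr1a (r = 0.968) were again the genes most like it over the 8 libraries.

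Krt5, the type II keratin of the basal layer (ENSRNOG00000050420, chromosome 7, 132846136 to 132851850, minus strand), had 296, 277, 217 and 276 CPM in AmeloD and 247, 213, 189 and 177 CPM in Control. Here the groups overlapped: AmeloD pCMV6.ODAM TGF lay below Control pCMV6 N. Krt5 was nevertheless higher in AmeloD in 4 of 4 matched pairs, that is, pairs of libraries differing in genotype alone. Its change of 0.37 ± 0.09 passed with an adjusted p of 0.00527 by limma. The call was lost without AmeloD pCMV6 TGF (0.31, adjusted p = 0.0504) and without Control pCMV6 TGF (0.30, adjusted p = 0.0672), and within the N, TGF and pCMV6.ODAM libraries taken alone (adjusted p = 0.0927, 0.0521 and 0.292, limma). Map2k3, a kinase of the p38 pathway (r = 0.924), and Notch1, a receptor of epithelial differentiation (r = 0.900), were most like Krt5 over the 8 libraries.

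Krt80, a type II keratin associated with desmosomes (ENSRNOG00000025994, chromosome 7, 132463218 to 132485508, minus strand), had 3.31, 2.97, 5.12 and 4.71 CPM in AmeloD and 1.31, 0.745, 1.75 and 1.63 CPM in Control. The groups did not overlap. It rose by 1.09 ± 0.18 (adjusted p = 0.000119, limma) on 284 reads in all. Krt23, a type I keratin (ENSRNOG00000011907, chromosome 10, 84434380 to 84450983, minus strand), had 3.41, 1.56, 1.46 and 1.57 CPM in AmeloD and 0.376, 0.677, 0.845 and 0.338 CPM in Control. AmeloD pCMV6 N stood above the other libraries, with 36 of the gene's 129 reads. The change was 0.91 ± 0.21 (adjusted p = 0.00323, limma), and it was no longer called within the TGF libraries (0.68, adjusted p = 0.156) or the pCMV6.ODAM libraries alone (0.51, adjusted p = 0.301).

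**Figure D2:**
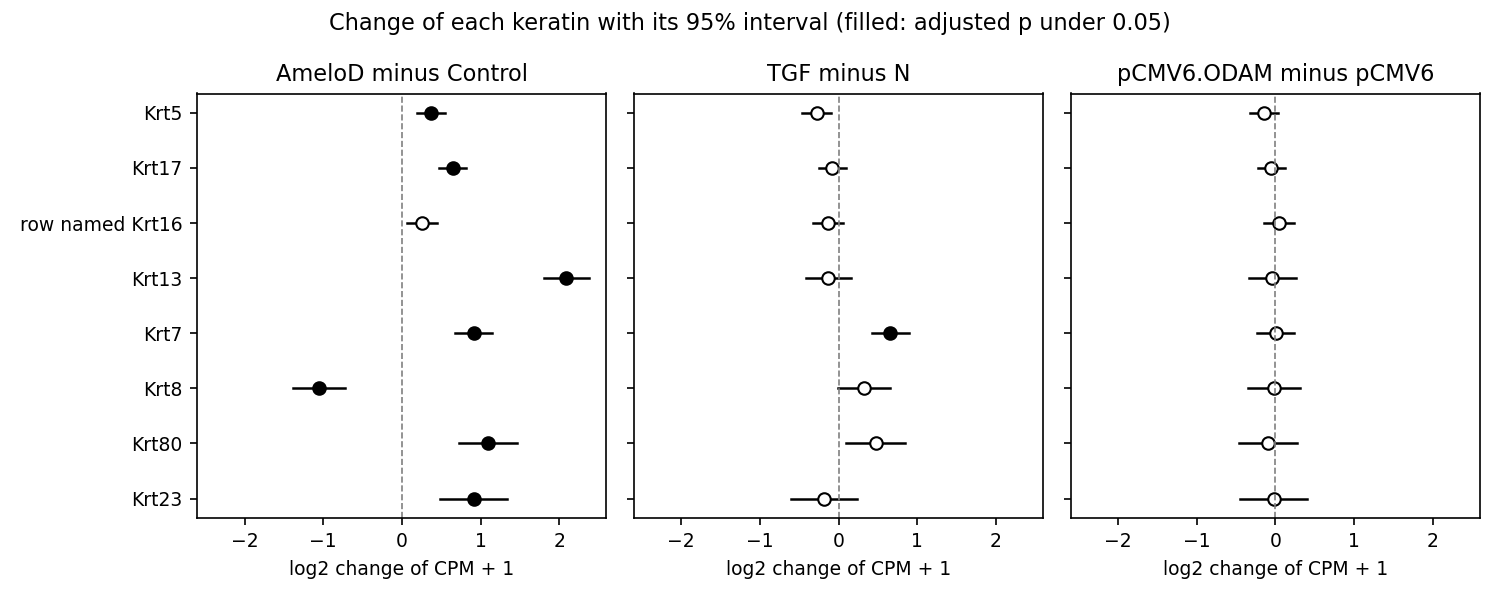
Change of each keratin on the log2(CPM + 1) scale (horizontal axes) for genotype, TGF and plasmid, as point and 95% interval from limma; filled points had an adjusted p under 0.05. For genotype 6 keratins with filled points lie right of 0, as does the open point of the row named Krt16 (0.26, 95% interval 0.07 to 0.45). Krt8 lies left of 0. For TGF Krt7 is the one filled point, and for plasmid there is none.

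The row named Krt16 needs its own account, because it holds more than Krt16. Its gene model (ENSRNOG00000003899, chromosome 10, 85066802 to 85171799, minus strand) joins 39 exon blocks of 10 transcripts, which lie in 5 clusters more than 3000 bases apart. With Krt9, which has a row of its own and lies between the second and the third cluster, they fill the stretch between Krt13 and Krt17. RefSeq places 6 coding genes there, in the order Krt15, Krt19, Krt9, Krt14, Ka11 and Krt16, so the clusters stand where Krt15, Krt19, Krt14, Ka11 and Krt16 are expected. Reads of Krt14, the basal partner of Krt5, and of Krt19, the simple-epithelial partner of Krt7 and Krt8, therefore cannot be told apart in this row from those of Krt15 and Krt16. Clusters were matched to names by gene order alone, since the RefSeq table is of another build.

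**Figure D3:**
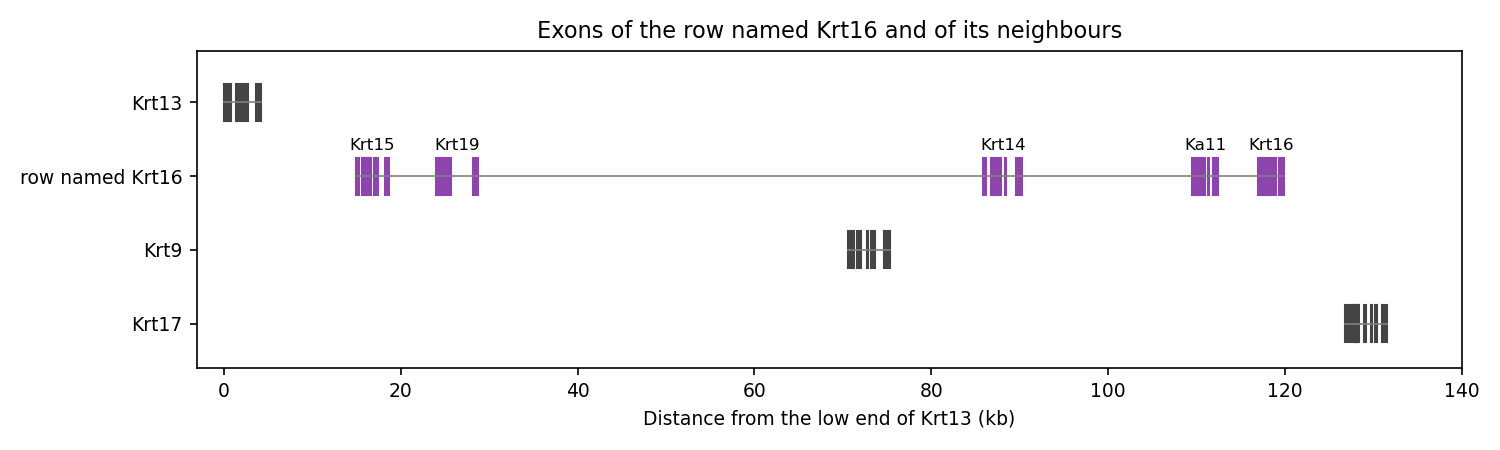
Exons of the row named Krt16 (purple) and of its neighbours Krt13, Krt9 and Krt17 (grey), drawn to scale against the distance in kb from the low end of Krt13. The names over the 5 purple clusters are the RefSeq genes in the same order; Krt9 lies between the second and the third cluster.

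The row named Krt16 had 392.3, 409.6, 417 and 414 CPM in AmeloD and 405, 356, 343 and 274 CPM in Control. The AmeloD libraries were close together, and Control pCMV6 N lay among them while the other Control libraries were lower. Its genotype change of 0.26 ± 0.09 did not pass (adjusted p = 0.0659, limma). It passed without Control pCMV6 N (0.36, adjusted p = 0.0162) and within the TGF or the pCMV6 libraries alone (0.44 and 0.27, adjusted p = 0.025 and 0.0378). Its fitted change by TGF was -0.13 ± 0.09 (adjusted p = 0.644, limma).

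With TGF 1 of the 7 tested keratins passed, against 1.81% of all tested genes (1.53% higher and 0.277% lower; median change 0.04). Krt7 rose by 0.66 ± 0.11 (adjusted p = 0.00109, limma) and was higher in TGF in 4 of 4 matched pairs. From N to TGF its level went from 147 to 215 and from 126 to 291 CPM in AmeloD, and from 91.7 to 110.3 and from 75.6 to 117 CPM in Control (pCMV6 first). The N and TGF groups as wholes overlapped, because AmeloD N lay above Control TGF. In the AmeloD libraries alone the change was 0.87 (adjusted p = 0.119) and in the Control libraries alone 0.44 (adjusted p = 0.215, limma), on 4 libraries each.

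**Figure D4:**
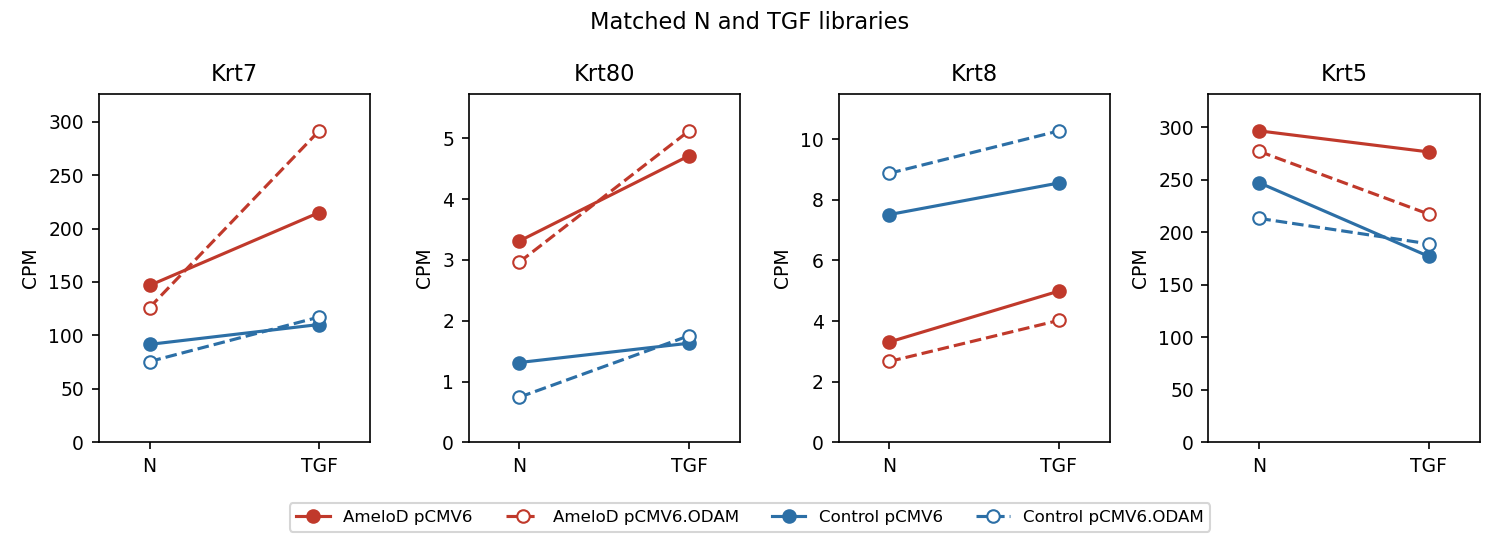
Level in CPM (vertical axes, starting at 0) of Krt7, Krt80, Krt8 and Krt5 in matched N and TGF libraries, with a line for each genotype and plasmid. All 4 lines of Krt7 go up, from 126 to 291 CPM in AmeloD pCMV6.ODAM, and all 4 lines of Krt5 go down, although only Krt7 passed the test.

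The other keratins did not pass for TGF, and their directions are given as values. Krt80 had a change of 0.47 ± 0.18 (adjusted p = 0.239) and Krt8 one of 0.32 ± 0.16 (adjusted p = 0.446), each with a higher TGF value in 4 of 4 pairs. Krt5 had a change of -0.28 ± 0.09 (adjusted p = 0.138, limma), with a lower TGF value in 4 of 4 pairs. DESeq2 on the recovered reads called Krt5 as well (-0.33, adjusted p = 0.0429). Krt13, Krt17 and Krt23 had changes of -0.13, -0.08 and -0.18, with adjusted p of 0.808, 0.796 and 0.81 by limma. The 95% interval of the change was -0.42 to 0.16 for Krt13 and -0.25 to 0.10 for Krt17.

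Whether the TGF change of a keratin depended on genotype was tested as an interaction. No keratin passed, and 0.0146% of all genes did (1 of 6849; 282 had an unadjusted p under 0.05). Krt7 had the largest positive difference of differences, 0.43 ± 0.22 (unadjusted p = 0.0587, adjusted p = 0.999, limma), with a 95% interval of -0.02 to 0.88.

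The plasmid label moved no keratin past the test, as it moved none of the 6849 genes (0% passed by limma, 454 with an unadjusted p under 0.05; edgeR called 0 genes, and DESeq2 called 1 gene, which is no keratin). The plasmid change (pCMV6.ODAM minus pCMV6) lay between -0.14 for Krt5 and 0.01 for Krt7. The widest 95% interval, that of Krt23, ran from -0.45 to 0.40. Genotype by plasmid and plasmid by TGF called no gene either (0% each; 308 and 504 genes with an unadjusted p under 0.05). In the second of these Krt7 had 0.51 ± 0.20 (unadjusted p = 0.0189, adjusted p = 0.635) and Krt13 had 0.62 ± 0.25 (unadjusted p = 0.0223, adjusted p = 0.649, limma). For Krt13 that difference came with Control values of 29.8 and 19.9 CPM in pCMV6, N and TGF, and of 20.3 and 32.9 CPM in pCMV6.ODAM. Over all genes the median for plasmid by TGF was itself 0.16, and it was -0.00 with TMM scaling. Under TMM scaling Krt7 had 0.30 (adjusted p = 0.933) and Krt13 had 0.42 (adjusted p = 0.924, limma).

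Type II keratins were set against type I keratins as a log2 ratio of CPM + 1 within a library, so that scaling enters only through the pseudocount, which weighs on low genes such as Krt8. The planned pairs with Krt14, Krt18 and Krt19 could not be formed, which left Krt5 over Krt17; 4 further pairs were added after the rows were seen. With 4 libraries against 4 the smallest two-sided exact permutation p is 0.0286, and p values were adjusted over the 5 pairs of a comparison, so that a single pair at that p could not pass by itself. The log2 ratio of Krt5 to Krt17 was -0.80, -0.98, -1.19 and -0.89 in AmeloD and -0.63, -0.49, -0.81 and -0.80 in Control. It was lower in AmeloD in 4 of 4 matched pairs. The difference of -0.28 had an exact permutation p of 0.0571 (adjusted p = 0.143), and AmeloD pCMV6 N overlapped the Control group. Without that library the groups no longer overlapped, so the smallest p that 3 libraries against 4 can give was fixed by the choice. The pair, taken alone and not adjusted over the 5, then had an exact permutation p of 0.0286, which lends no weight.

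Krt8 over the row named Krt16 was lower in every AmeloD library (-6.81 to -6.11) than in any Control library (-5.58 to -4.85), a difference of -1.32 (exact permutation p = 0.0286, adjusted p = 0.143). From plain CPM, with no pseudocount, that difference was -1.52 with the same p values. Krt7 over that row was higher in AmeloD in 4 of 4 pairs, with a difference of 0.66 (exact permutation p = 0.143, adjusted p = 0.238). Krt7 over that row was 0.79 higher with TGF (exact permutation p = 0.0571, adjusted p = 0.143). Krt5 over it differed by 0.11 between genotypes (exact permutation p = 0.429).

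The summed type II keratins over the summed type I keratins, the row named Krt16 included, had a log2 ratio of -1.15 ± 0.19 in AmeloD and -1.14 ± 0.09 in Control (SD, n = 4 each; exact permutation p = 0.943). The same ratio was -1.04 ± 0.08 with TGF and -1.25 ± 0.09 with N, and these groups did not overlap (difference 0.21, exact permutation p = 0.0286, adjusted p = 0.143).

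**Figure D5:**
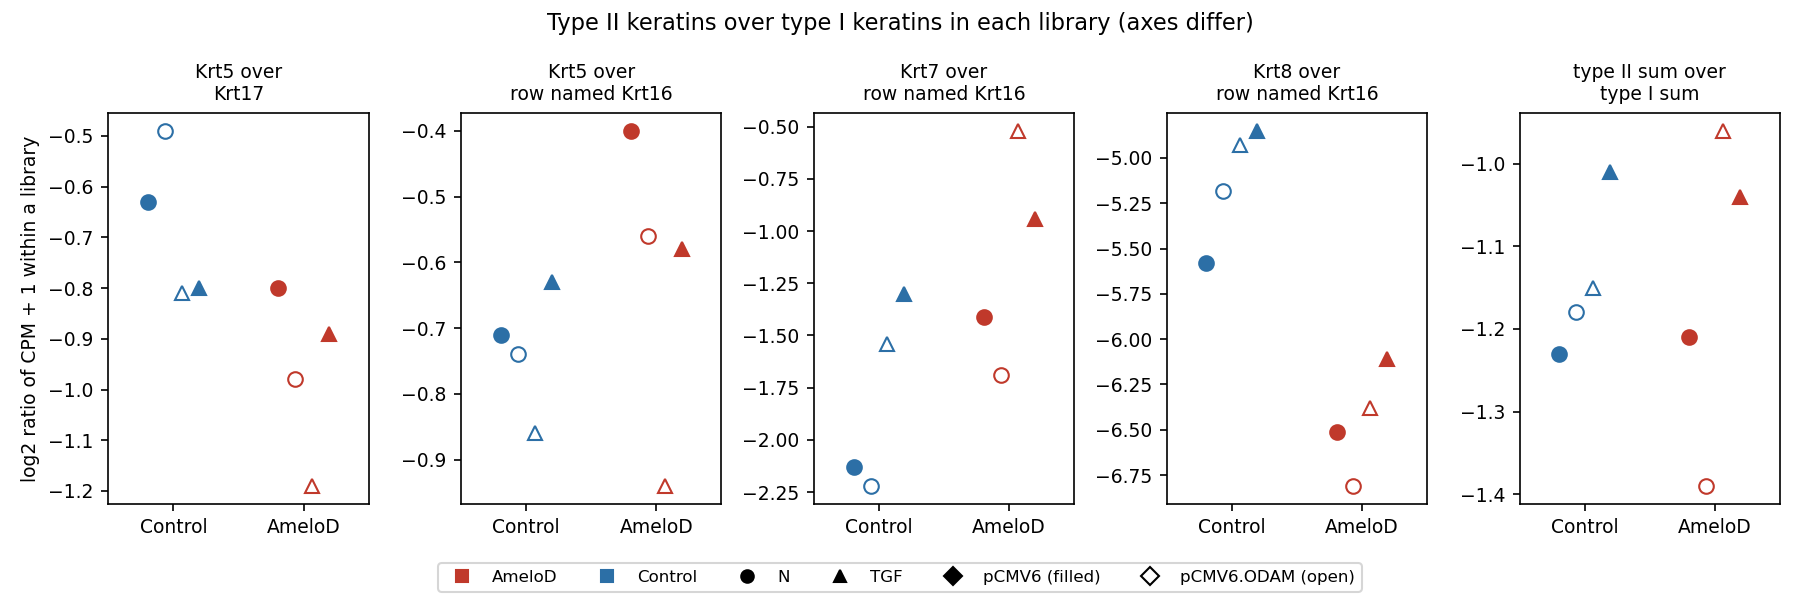
Log2 ratio of a type II keratin to a type I keratin within a library, from CPM + 1 (vertical axes, which differ and do not start at 0), in Control and AmeloD. Krt8 over the row named Krt16 shows 2 separate groups, -5.58 to -4.85 in Control and -6.81 to -6.11 in AmeloD; in the last panel the triangles (TGF) lie above the circles (N).

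Of the 42 other keratin rows 6 were tested, and 3 of these rose in AmeloD. Krt6a and Krt32 reached 1 CPM in the 4 AmeloD libraries alone, and Krt78 in 4 AmeloD libraries and 1 Control library. They too entered through the group where they were high, so their values are a description and their number lends no weight. Krt6a, the stress-inducible type II partner of Krt16 and Krt17, rose by 0.72 ± 0.19 (adjusted p = 0.00927, limma). Krt78, a type II keratin, rose by 1.09 ± 0.20 (adjusted p = 0.000341), and Krt32, a hair keratin of type I, by 1.15 ± 0.20 (adjusted p = 0.000277, limma). Krt10, Krt71 and the row named Krt16 did not pass. The 36 rows below the filter held 188 reads together, and 11 of them held none. None of the 6 tested rows passed for TGF or plasmid.

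Proteins that anchor or organise keratin filaments moved both ways by genotype. Of 23 listed genes 22 had a row and 21 could be tested, with 6 rises, 2 falls and 13 that did not pass (median change 0.24, against 0.05 over all genes, of which 9.07% rose and 4.75% fell). All 21 reached 1 CPM in both genotypes. Those that rose were Tgm1, which crosslinks keratinocyte envelopes (1.43 ± 0.14, adjusted p = 5.52e-08), the chaperone Hspb1 (0.84 ± 0.11, adjusted p = 4.6e-06), the envelope plakin Ppl (0.99 ± 0.17, adjusted p = 0.000178), and the desmosomal plakophilin Pkp1 (0.71 ± 0.15, adjusted p = 0.00184, limma). Sfn, which binds phosphorylated keratins (0.39 ± 0.09, adjusted p = 0.00553), and the desmosomal plakin Dsp (0.58 ± 0.15, adjusted p = 0.0109, limma) also rose. The pair that fell, named after their values were seen, were Col17a1 of the hemidesmosome (-0.43 ± 0.12, adjusted p = 0.0172) and the cytolinker Plec (-0.56 ± 0.18, adjusted p = 0.0379, limma). None of the 21 passed for TGF, where the smallest adjusted p were 0.1 for Pkp1 (0.51) and 0.125 for Col17a1 (-0.39).

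Among transcription factors known to act on keratin genes in epithelia, 24 were listed and 16 tested, of which 13 did not pass, 2 rose and 1 fell (median change 0.04), which is near the 13.8% called over all genes. Pitx1, a homeobox factor of oral and dental epithelium, rose by 0.65 ± 0.17 (adjusted p = 0.0118, limma). The AP-1 member Fosl1 had a change of -1.23 ± 0.19 (adjusted p = 5.2e-05, limma) and reached 1 CPM in the 4 Control libraries alone. Tp63, the regulator of basal epithelium, had 2.05 ± 0.908 CPM in AmeloD and 1.69 ± 0.407 CPM in Control (SD, n = 4 each; adjusted p = 0.725, limma). Of the other intermediate filament genes 2 were tested, and Vim (-0.06, adjusted p = 0.886) and Lmna (0.01, adjusted p = 0.982, limma) did not pass.

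Apart from the keratins, the epithelial markers Cdh1 and Epcam were detected, and both rose in AmeloD, by 0.74 ± 0.19 and 0.65 ± 0.13 (adjusted p = 0.00791 and 0.00153, limma). Cldn7, the remaining pan-epithelial marker listed, had 1 read in the 8 libraries together. The 3 pan-epithelial markers summed to 17.7 to 27.8 CPM in AmeloD and 10.7 to 14.6 CPM in Control. Of 9 mesenchymal markers 4 (Col1a2, Pdgfrb, Dcn and Lum) had 0 reads, and the sum was 17.5 to 26.8 CPM in AmeloD against 34.1 to 64.5 CPM in Control. Nearly all of that sum was Col3a1, with a mean of 20.3 CPM in AmeloD and 45.8 CPM in Control. Its change was -1.11 ± 0.13 (adjusted p = 7.91e-07, limma), while Col1a1 had 4 reads and Pdgfra 2 reads in all. Of 5 leukocyte markers 2 (Tyrobp and Lyz2) had 0 reads, and the sum was 2.77 to 3.73 CPM against 0.876 to 1.63 CPM. Nearly all of this sum was Cd68, with a mean of 3.21 CPM in AmeloD and 1.20 CPM in Control. Ptprc had 1 read and Fcer1g 11 reads in all. The part of these differences in the keratin results was not tested, and in bulk RNA fewer cells of a type and less RNA per cell cannot be told apart. All 6 ameloblast and all 3 odontoblast markers had 0 reads. Over all genes 65.6% of genotype calls were rises, a share of 52.9% with TMM scaling and 49% with libraries shifted to 1 median, and for TGF it was 84.7% against 70.6% with DESeq2. Under each of those scalings 6 keratins rose and Krt8 fell between the genotypes.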

How the data were processed

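RNA of 8 libraries was sequenced as 3'-end libraries (QIAseq UPX 3' Transcriptome chemistry) on a DNBSEQ-G400, per the labels' protocols. Reads were trimmed, aligned with STAR 2.7.10a to mRatBN7.2 and counted per gene with featureCounts 2.0.1, per the submitters' processing notes; the strand setting, the use of molecular identifiers and the handling of shared reads are not stated there. The authors deposited CPM per gene and library. From the CPM of 1 read in each library, whole read numbers were recovered for 100% of values (tolerance 0.01). The rows held 1662973 to 2854134 reads per library, 15.6% to 17.5% of the total each library was scaled to. Reads need not be independent molecules, so intervals and floors cover counting error only.

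The test was limma 3.58.1 (R 4.3.3) on log2(CPM + 1) with the eBayes trend and additive terms for genotype, plasmid and TGF (4 residual degrees of freedom), two-sided, over the 6849 genes that reached 1 CPM in 4 or more libraries. Interactions were fitted 1 at a time (3 residual degrees of freedom). edgeR 4.0.16 and DESeq2 1.42.0 on recovered reads were alternatives, and the limma, edgeR and DESeq2 fits were tried on simulated data with known changes. The permutation test and its adjustment were checked on made-up values with known answers. The other steps were not tested in this way. Partner ratios used the exact permutation test over 70 splits.

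The genes and lists were chosen with earlier results of these data known. Named genes were the 10 keratins, Ascl5, Odam, up to 6 list members past the test with the smallest adjusted p (or the 2 smallest where none passed), and for each keratin averaging 10 CPM or more the 2 genes of highest Pearson r. List symbols were matched to the table with RefSeq synonyms, which changed 1 name (Trp63 to Tp63). Values of some list members are not reported here; none of the 10 keratins was dropped after its values were seen.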

Additional observations from a re-analysis of the deposited data

How the results depend on the processing

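The count of keratins past the genotype test was 7 under both scalings, both pseudocounts, edgeR, DESeq2 and no filter, and 5 with the filter at 5 CPM, which leaves Krt23 and Krt80 untested. It was 6 to 7 when 1 library was left out, 5 in the TGF or the pCMV6.ODAM libraries alone, 6 in the N libraries alone and 7 in the pCMV6 libraries alone. Krt23 passed the filter at 1 CPM through AmeloD alone, so it lends no weight to the counts that use that filter. Krt8 reached 5 CPM in the 4 Control libraries alone (at most 4.99 CPM in AmeloD). It passed the filter at 5 CPM through the group where it was high and lends that count no weight. The TGF count of 1 (Krt7) became 2 with DESeq2, which added Krt5, and 0 in the Control or the AmeloD libraries alone, where fewer libraries entered the fit; otherwise it stayed 1. The planned ratio (Krt5 over Krt17) gave a count of 0 to 1 for genotype when 1 library was left out. These counts take that pair alone, with no adjustment over the 5 pairs, and the 1 came without AmeloD pCMV6 N, the AmeloD library that overlapped Control. Leaving out that library removes the overlap and so fixes the p value, and the count of 1 lends no weight. Over all 5 pairs the count was 0 for each comparison, with and without the pseudocount. No result changed direction past the test. No keratin was called for plasmid or for any interaction in any setting that was run. The planned ratios with Krt14, Krt18 and Krt19 were not run. The labels carry no replicate numbers, but libraries can be matched on the other factors. With those matched pairs as a block (3 residual degrees of freedom, added after seeing the data) the counts were again 7 for genotype, 1 for TGF and 0 for plasmid, and no keratin's call changed. Depth limits Krt8, Krt23 and Krt80, whose levels rest on 741, 129 and 284 reads.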
